A study of Mus musculus with 6 samples.

Results

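The smooth muscle contractile genes examined here are 10 genes, Acta2, Actg2, Tagln, Myh11, Cnn1, Lmod1, Des, Myl9, Tpm2 and Myocd, measured in cochlear lateral wall from young adult and old CBA/CaJ mice. They were found by symbol, taking each array probe set that the platform annotation assigns to 1 of them alone, which gave 18 probe sets of 45037 tested and 10 genes of 18193. The lateral wall is the outer wall of the cochlear duct, with the secretory stria vascularis and the connective tissue of the spiral ligament. RNA from 3 samples of young adults of 1 to 3 months and 3 samples of old mice of 1.5 years was hybridised to 1 Affymetrix array each. Both ages were of 1 inbred strain, bred in quiet housing, with no treatment or altered gene named in the labels, and animals of both sexes were used. Whether each sample was 1 animal or a pool is not given in the labels, and p-values here cover only the scatter of these samples, which may be technical.

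Contractile genes build the actin and myosin machinery of smooth muscle cells, which ring arterioles and set their width. Myosin heavy chain pulls on actin filaments when its light chain is phosphorylated, while tropomyosin and calponin lie along the filament and tune that pull. The serum response factor SRF and its partner myocardin switch on many of these genes through CArG boxes, short A- and T-rich elements in their regulatory DNA. In the lateral wall, contractile proteins also occur in pericytes of the strial and ligament capillaries and in fibrocytes of the ligament that insert on bone. In whole tissue, fewer cells of a type and less RNA per cell cannot be told apart.

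Promoter sequence, which carries such elements, is shown for 3 genes whose signal fell with age, Acta2, Myl9 and Tpm2, and for Lmod1, which did not pass the test. RefSeq promoters on GRCm38.p6, of 250 bases before and 50 bases after the transcription start, were at hand for 6 of the 10 genes. Those of Tagln, Actg2, Myh11 and Myocd were not at hand. Capitals mark CArG boxes, searched as 2 C bases, 6 bases of which at least 5 are A or T, and 2 G bases, a pattern that reads the same way on both strands.
Acta2, chr19:34255324-34255623, minus strand: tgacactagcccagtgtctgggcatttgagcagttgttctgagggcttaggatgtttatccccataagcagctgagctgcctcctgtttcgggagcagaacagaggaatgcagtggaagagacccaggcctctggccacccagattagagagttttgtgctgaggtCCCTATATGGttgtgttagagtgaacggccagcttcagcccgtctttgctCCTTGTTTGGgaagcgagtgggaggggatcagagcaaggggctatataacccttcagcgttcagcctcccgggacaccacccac
Myl9, chr2:156775214-156775513, plus strand: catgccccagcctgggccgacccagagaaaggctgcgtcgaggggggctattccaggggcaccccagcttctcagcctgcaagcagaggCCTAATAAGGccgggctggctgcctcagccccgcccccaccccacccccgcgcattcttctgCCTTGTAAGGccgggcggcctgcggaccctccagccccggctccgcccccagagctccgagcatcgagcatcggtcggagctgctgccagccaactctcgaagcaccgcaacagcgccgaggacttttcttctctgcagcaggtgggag
Tpm2, chr4:43523505-43523804, minus strand: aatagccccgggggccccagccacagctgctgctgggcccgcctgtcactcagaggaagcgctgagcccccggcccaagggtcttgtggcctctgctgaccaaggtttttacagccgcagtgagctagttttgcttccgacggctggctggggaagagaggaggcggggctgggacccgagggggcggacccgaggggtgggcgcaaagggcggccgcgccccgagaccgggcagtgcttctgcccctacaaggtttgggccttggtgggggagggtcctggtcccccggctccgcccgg
Lmod1, chr1:135324563-135324862, plus strand: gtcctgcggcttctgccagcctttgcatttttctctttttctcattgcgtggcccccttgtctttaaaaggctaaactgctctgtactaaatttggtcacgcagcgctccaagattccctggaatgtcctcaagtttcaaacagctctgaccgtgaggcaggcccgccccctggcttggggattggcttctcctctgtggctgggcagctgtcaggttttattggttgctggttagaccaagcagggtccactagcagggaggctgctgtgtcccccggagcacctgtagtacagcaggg
The Acta2 window held 2 matches, CCCTATATGG and CCTTGTTTGG, which begin 84 and 34 bases before the start. The Myl9 window held 2 as well, CCTAATAAGG and CCTTGTAAGG, at 161 and 99 bases before it. A core of 6 A or T bases was found in CCTAATAAGG alone, and 1.63% of 32851 RefSeq mouse promoter windows of this length held such a strict match, while 9.98% held a match at the looser setting. These letters were not found in the windows of Tpm2, Lmod1, Cnn1 or Des. Such matches describe the sequence and show no binding. Sequence outside these windows was not searched, and a link between matches and age differences was not tested.

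Of the 10 genes, 4 fell in old tissue, 0 rose and 6 did not pass the test. Those that fell were Tagln, Tpm2, Acta2 and Myl9, which encode an actin-binding protein, a tropomyosin, the smooth muscle actin and the regulatory myosin light chain. Their signal was 1.58-fold to 2.35-fold lower on the linear scale. Myh11, Cnn1, Actg2 and Myocd, all common markers of mature smooth muscle, stayed on every array below 6.28, the median signal over the whole table. All values are log2 signals, means are given ± SD with n = 3 arrays, differences are old minus young ± the standard error from limma, and p-values carry a Benjamini-Hochberg adjustment across the 45037 probe sets tested.

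By probe set, 5 of 18 were called lower and 0 higher at a limma adjusted p of 0.05. Over all probe sets, 4.71% were called, 2.84% lower and 1.86% higher, and at 1 probe set per gene 4.78% were called, 2.33% lower and 2.45% higher. Probe sets with a mean above the median signal were called more often, at 7.33%, and 7 of the 18 lay there. The median difference was -0.10 over the 18 probe sets and 0.01 over all probe sets. An unadjusted limma p under 0.05 was found for 3762 of the 18193 genes and for 4 of the 10 contractile genes. The background depended on single arrays: of all probe sets 2119 were called with all arrays, and 985, 3393 and 618 were called when young replicate 1, 2 or 3 was left out. Leaving out old replicate 1, 2 or 3 gave 934, 1122 and 515. In the same order, 4, 5, 3, 5, 4 and 4 of the 18 contractile probe sets were called, all lower. At 1 probe set per gene, 9.7% of all genes had every old array below every young one, as did 4 of the 10 contractile genes. The reverse, every old array above every young one, held for 3096 of the 18193 genes and 0 of the 10.

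**Figure D1:**
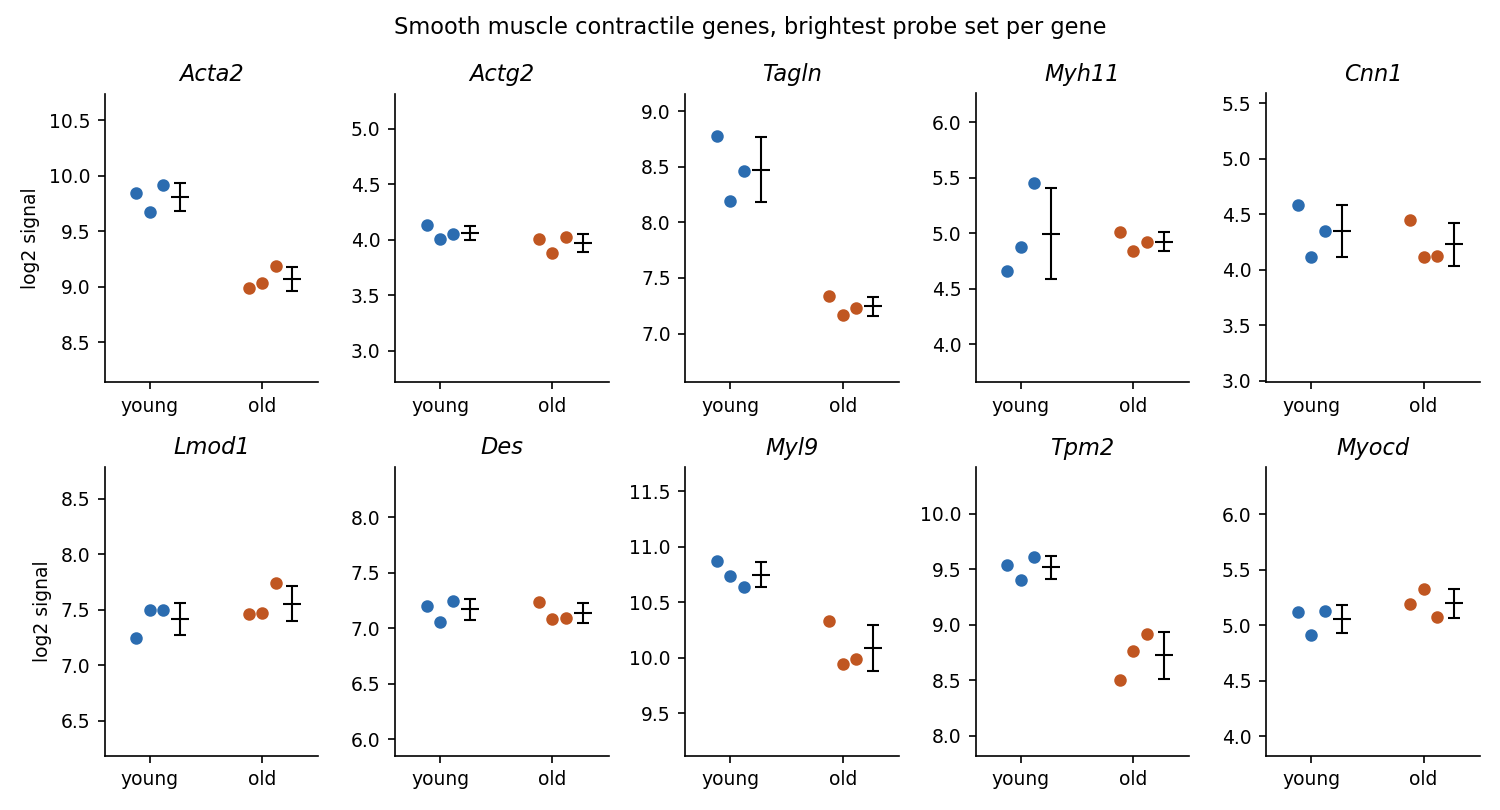
Log2 signal of the brightest probe set of each of the 10 genes on the 3 young (blue) and 3 old (orange) arrays. Points are arrays in replicate order, the bar beside them is the mean ± SD, and each panel spans the same number of log2 units around its own centre. Acta2, Tagln, Myl9 and Tpm2 have all old arrays below all young arrays, and the other genes overlap.

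The smooth muscle actin gene Acta2, whose protein forms the thin filament, was read by 3 probe sets. The brightest, 1416454_s_at, had signals of 9.84, 9.67 and 9.92 in young and 8.99, 9.03 and 9.19 in old samples. Every old array lay below every young array, with means of 9.81 ± 0.13 and 9.07 ± 0.11. Acta2 fell by 0.74 ± 0.10, a 1.67-fold lower linear signal (limma adjusted p = 0.00612). The suffix of this probe set marks probes that can match several transcripts, so a share of related actins in its signal was not tested. The other Acta2 probe sets, 1456658_at and 1444105_at, had young means of 3.99 and 3.73 and old means of 3.98 and 3.73, near the bottom of the signal range. Averaged over all 3 probe sets, the Acta2 difference was -0.25 and did not pass (limma adjusted p = 0.0753).

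Actg2, the smooth muscle actin of gut and other visceral walls, had signals of 4.13, 4.01 and 4.05 in young and 4.01, 3.88 and 4.03 in old samples. Its groups overlapped, and the difference of -0.09 had a 95% interval from -0.28 to 0.10 (limma adjusted p = 0.643). Among the actins outside the contractile set, 0 of 4 were called by limma and 0 had an unadjusted p under 0.05. The cytoskeletal actin genes Actb and Actg1 differed by -0.16 ± 0.08 and 0.06 ± 0.07, with limma adjusted p of 0.325 and 0.744. Skeletal actin Acta1 and cardiac actin Actc1 both had a difference of 0.06, with SE of 0.26 and 0.08, and limma adjusted p of 0.937 and 0.795. Whether these differed from Acta2 was not tested.

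Among actin-binding genes, Tagln, which encodes the smooth muscle protein transgelin, had the lowest difference of the 18 probe sets. Its signals were 8.78, 8.19 and 8.46 in young and 7.34, 7.17 and 7.23 in old samples. Young arrays spread over 0.59 and old arrays over 0.17, and the groups did not overlap, at 8.48 ± 0.30 and 7.25 ± 0.09. Tagln fell by 1.23 ± 0.14, a 2.35-fold lower signal (limma adjusted p = 0.00393). The call held on leaving out any 1 array, with differences from -1.37 to -1.08 and a limma adjusted p of 0.00222 to 0.0284.

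Calponin 1, the Cnn1 product that binds actin and restrains myosin, had signals of 4.58, 4.11 and 4.35 in young and 4.45, 4.11 and 4.12 in old samples. The groups overlapped, at 4.35 ± 0.24 and 4.23 ± 0.19, and the difference of -0.12 had an interval from -0.44 to 0.20 (limma adjusted p = 0.737). Lmod1, leiomodin 1, nucleates actin filaments in smooth muscle. Its signals were 7.25, 7.50 and 7.50 in young and 7.46, 7.47 and 7.74 in old samples, above that table-wide median on every array. The Lmod1 difference was 0.14 ± 0.11 with an interval from -0.11 to 0.39 (limma adjusted p = 0.580). That interval and the one of Tagln, -1.55 to -0.91, lie apart, although the difference between the genes was not itself tested.

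Tpm2, the gene of beta-tropomyosin, makes smooth muscle, skeletal muscle and other forms by alternative splicing, and was read by 4 probe sets. The brightest, 1419738_a_at, had 9.54, 9.40 and 9.61 in young and 8.50, 8.76 and 8.92 in old samples. A second, 1425028_a_at, had 8.17, 8.13 and 8.18 in young and 7.15, 7.46 and 7.43 in old samples. On both, every old array lay below every young one, and Tpm2 fell by 0.79 ± 0.12 and 0.81 ± 0.10 (limma adjusted p = 0.0105 and 0.00498). Without young replicate 3 the brightest had a limma adjusted p of 0.0570, and 1425028_a_at kept its call on leaving out any array, up to 0.0320. Averaged over all 4 probe sets, the Tpm2 difference was -0.51 (limma adjusted p = 0.0119).

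The other pair of Tpm2 probe sets gave no call. Probe set 1419739_at had 5.94, 5.76 and 5.63 in young and 5.75, 5.80 and 5.74 in old samples, with a difference of -0.01 and an interval from -0.23 to 0.20 (limma adjusted p = 0.966). Probe set 1449577_x_at, whose suffix marks possible cross-hybridisation, had 5.0, 5.74 and 5.20 in young and 4.77, 5.13 and 4.72 in old samples, with a difference of -0.44 (limma adjusted p = 0.249). Both were below the median signal, and 3 of the 4 probe sets, all but 1425028_a_at, cite the same source sequence in the annotation. The gap between the brightest and 1419739_at was 3.74 ± 0.21 in young and 2.96 ± 0.22 in old samples, and did not overlap. Its exact 2-sided permutation p was 0.1, the smallest that 3 against 3 arrays can give, and 0.267 after adjustment over the 8 pairs of probe sets compared. The gap between the brightest and 1425028_a_at was 1.36 ± 0.08 and 1.38 ± 0.10 (exact permutation p = 0.8, adjusted 0.914).

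**Figure D2:**
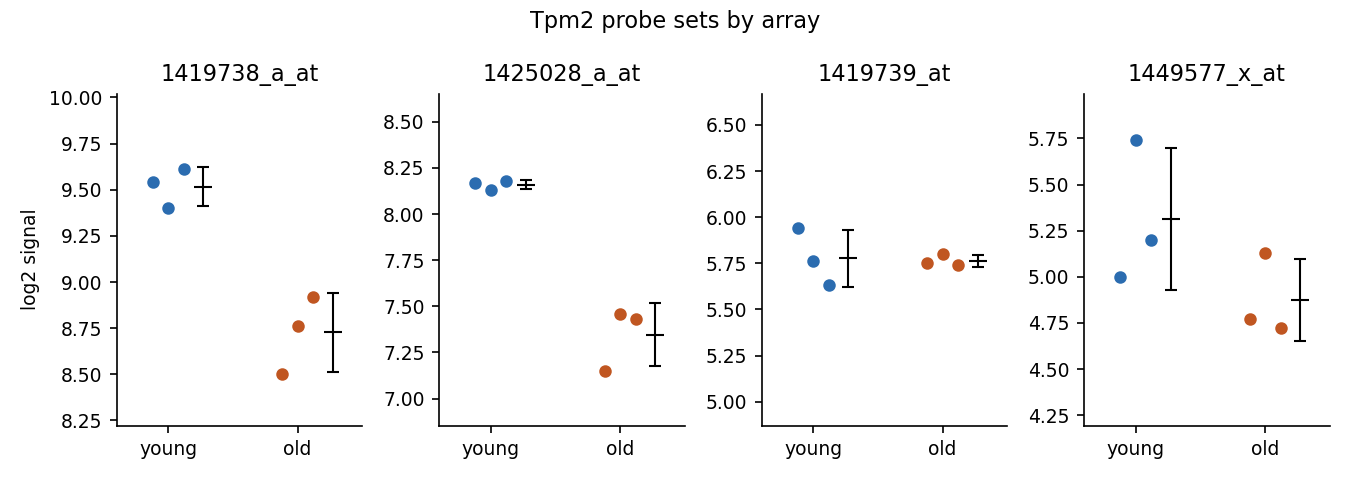
Log2 signal of the 4 Tpm2 probe sets on 3 young (blue) and 3 old (orange) arrays, with mean ± SD beside the points and the same span of log2 units in each panel. Old arrays lie below young arrays at 1419738_a_at and 1425028_a_at, and overlap with them at the other pair.

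Of the myosin genes, Myl9, the regulatory light chain whose phosphorylation starts contraction, fell. Its signals were 10.87, 10.74 and 10.64 in young and 10.33, 9.95 and 9.99 in old samples. Old replicate 1 stood nearest to the young arrays, and the groups did not overlap, at 10.75 ± 0.12 and 10.09 ± 0.21. Myl9 fell by 0.66 ± 0.12, a 1.58-fold lower signal (limma adjusted p = 0.0205). This call was lost without young replicate 1, young replicate 3, old replicate 2 or old replicate 3, with a limma adjusted p of 0.0638, 0.0615, 0.0617 and 0.0949, and the difference then lay between -0.72 and -0.59.

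Myh11, the smooth muscle myosin heavy chain that marks mature smooth muscle, was read by a pair of probe sets that cite 1 source sequence. Probe set 1448962_at had 4.66, 4.88 and 5.45 in young and 5.01, 4.84 and 4.92 in old samples. Probe set 1418122_at had 5.06, 4.87 and 5.06 in young and 4.89, 4.79 and 4.79 in old samples. The groups overlapped on both, and the first had a difference of -0.07 with an interval from -0.48 to 0.33 (limma adjusted p = 0.891). The second had a difference of -0.17 with an interval that ran from -0.37 to 0.02 (limma adjusted p = 0.327). Young replicate 3 was 0.79 above young replicate 1 on the first but equal to it on the second. The gap between them was 0.00 ± 0.40 in young and 0.10 ± 0.04 in old samples (exact permutation p = 0.7, adjusted 0.914).

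Desmin, the Des product, is the intermediate filament of muscle and of many pericytes. Probe set 1426731_at had 7.20, 7.06 and 7.25 in young and 7.24, 7.08 and 7.09 in old samples, above the table-wide median on every array. The Des difference was -0.03 ± 0.09 with an interval from -0.23 to 0.17 (limma adjusted p = 0.900). A dimmer Des probe set, 1426732_at, had 4.90, 4.29 and 4.49 in young and 4.63, 4.32 and 4.41 in old samples, with a difference of -0.11 (limma adjusted p = 0.800). Both overlapped between the ages.

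Myocd, the coactivator myocardin that drives the contractile genes with SRF, had 5.12, 4.91 and 5.13 in young and 5.19, 5.33 and 5.07 in old samples at 1425808_a_at. The groups overlapped, with a difference of 0.14 and an interval from -0.09 to 0.37 (limma adjusted p = 0.518). The other Myocd probe set, 1425978_at, had a difference of -0.09 with an interval from -0.44 to 0.26 (limma adjusted p = 0.833). Srf and the myocardin-related coactivators Mrtfa and Mrtfb differed by 0.08 ± 0.08, -0.03 ± 0.09 and -0.02 ± 0.11, and limma gave them adjusted p of 0.711, 0.921 and 0.945. No member of this transcriptional group passed the test.

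**Figure D3:**
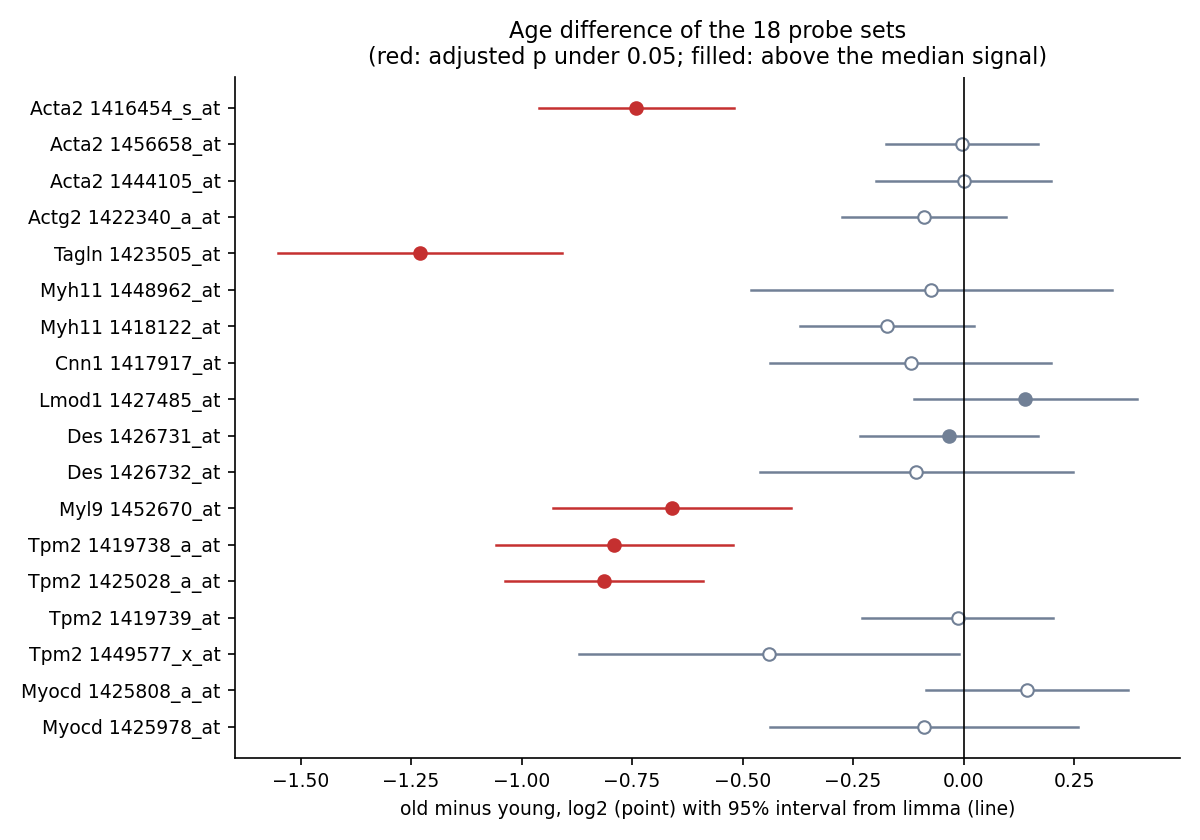
Difference between old and young arrays in log2 units for each of the 18 probe sets (points) with the 95% interval from limma (lines), in which red marks an adjusted p under 0.05 and filled points have a mean above the table-wide median signal. The 5 red probe sets, of Acta2, Tagln, Myl9 and Tpm2, lie between -1.23 and -0.66, and the other 13 lie between -0.44 and 0.14.

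Within an age, the arrays kept a similar order for several of these genes. Young replicate 2 had the lowest young signal for 7 of the 10 genes and the highest for 0 alone, though it equalled young replicate 3 in Lmod1. Old replicate 2 was the lowest old array for 6. How often each array was lowest over all genes was not counted, so this order is not shown to be particular to the contractile genes. The mean deviation of the 10 genes from their own means was 0.21, 0.06 and 0.25 in the young arrays and -0.14, -0.23 and -0.16 in the old arrays. The genes whose profile differed least from this mean profile over the 6 arrays were Gpc6, Slc20a2, Myl6b, Ppp2r5b and Vps37b, with mean absolute differences of 0.024, 0.029, 0.032, 0.033 and 0.034 among 11582 candidates above the median signal. Their old minus young differences were -0.31, -0.37, -0.39, -0.29 and -0.28, and Slc20a2 and Myl6b passed the test (limma adjusted p = 0.0465 and 0.0355). The mean profile itself differed by -0.345, so falls near this size follow from how these genes were picked and are no separate result.

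Of 37 measured genes out of 41 for the regulation of smooth muscle contraction and its cytoskeleton, 2 fell, 0 rose and 35 did not pass. This share of 5.41% was near the 4.78% of all genes, and the medians were -0.06 and 0.03. Flna, which encodes the actin cross-linker filamin A, fell from 9.44 to 8.99, by 0.45 ± 0.09 (limma adjusted p = 0.0304). Prkg1, the kinase through which nitric oxide and cyclic GMP relax smooth muscle, fell from 9.32 to 8.91, by 0.41 ± 0.08 (limma adjusted p = 0.0313). Both calls were lost on leaving out any array except young replicate 2. Their limma adjusted p then reached up to 0.131 for Flna and 0.144 for Prkg1. In the fits that lost them, 0 of 37 genes passed and 5 to 7 had an unadjusted limma p under 0.05. Over all 45037 probe sets, 6279 to 7781 had such a p in the same fits. Leaving out young replicate 2 gave 3 passing genes of the 37. Gucy1b1, a subunit of the guanylate cyclase that nitric oxide activates, was next, at 0.33 ± 0.08 (limma adjusted p = 0.0557). Gucy1a1, another subunit gene of that enzyme, went the other way, at -0.29 ± 0.09 (limma adjusted p = 0.109). Cacna1c, a calcium channel gene with a mean below the table-wide median signal, differed by -0.54 ± 0.14 and did not pass (limma adjusted p = 0.0629). Mylk, the kinase that phosphorylates the myosin light chain, and the tropomyosin gene Tpm1 differed by 0.01 ± 0.08 and -0.09 ± 0.09 (limma adjusted p of 0.969 and 0.686).

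Markers of other vessel cells did not pass singly. Of 14 pericyte genes, 0 were called by limma and 2 had an unadjusted p under 0.05, with a median of -0.07. The pericyte genes brightest on these arrays, Tbx18, Rgs5 and Pdgfrb, differed by -0.04, -0.19 and -0.33, with limma adjusted p of 0.845, 0.478 and 0.162. Of 12 endothelial genes, 0 were called and 4 had an unadjusted p under 0.05, with a median of -0.01, and the brightest, Emcn, Esam and Eng, had differences of -0.21, -0.03 and -0.26. Those with an unadjusted p under 0.05 were Eng, Vwf, Cldn5 and Kdr. Every old array lay above every young one in Vwf, Cldn5 and Kdr, at 0.39, 0.38 and 0.23. They did not pass (limma adjusted p of 0.136, 0.160 and 0.153). Over all 18193 genes, 3762 had an unadjusted limma p under 0.05 and 3096 had every old array above every young one. On the log2 scale, the summed pericyte signal lay at 13.89 to 14.16 for young and 13.85 to 13.91 for old samples, which overlapped. Bright genes such as Tbx18 weigh most in this sum, and whether they read pericytes alone in this tissue was not tested.

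Tpm2 and Des are also expressed in skeletal muscle, which the middle ear holds beside the cochlea. Of 28 skeletal muscle genes, 1 fell and 0 rose, a share of 3.57% against 4.78% of all genes, with a median of 0.01. That gene was Casq1, the calcium store protein calsequestrin, at -0.87 ± 0.11 (limma adjusted p = 0.00544). The brightest of the list, Mybpc1, Tnnt1 and Pvalb, differed by -0.52, 0.21 and 0.08, with limma adjusted p of 0.0916, 0.442 and 0.880. The summed skeletal signal overlapped, from 11.03 to 11.07 over young and from 10.89 to 11.08 over old samples. Only 10 of the 28 genes had a mean above the table-wide median signal, so this sum is a weak measure of muscle content.

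Some genes of other marker lists were lower in old tissue, as Acta2, Tagln, Myl9 and Tpm2 were, and their part in those differences was not tested. Of 12 fibroblast and myofibroblast genes 3 fell and 0 rose, with summed signals of 14.62 to 14.77 for young and 14.28 to 14.44 for old samples. Col1a2 and Col3a1, of type I and III collagen, had the lowest differences there, at -2.69 and -1.51 (limma adjusted p = 0.00303 and 0.0117). Without old replicate 3, Col3a1 reached 0.0566. Col1a1, also of type I collagen, differed by -0.31 with overlapping groups and did not pass (limma adjusted p = 0.512). The brightest of the list, Dcn, Lum and Pdgfra, had differences of -0.13, 0.01 and -0.28 and did not pass. Of 6 measured bone genes 3 fell, with sums of 12.48 to 12.77 and 11.40 to 11.76. Of 10 marrow and blood genes 7 fell, with sums of 11.25 to 11.83 and 9.69 to 10.63. At 1 probe set per gene, 4.78% of all genes were called by limma, 2.33% lower and 2.45% higher. Phex, Mepe and Dmp1 of bone differed by -2.08, -1.41 and -1.10, and Alpl, which did not pass, by 0.32. The marrow genes S100a8, Camp, S100a9 and Ngp differed by -1.78, -1.68, -1.62 and -1.62. Of the 10 called genes of both lists, Dmp1 and Mpo (-1.27), the myeloperoxidase of neutrophils, passed on leaving out any 1 array. The 14 lateral wall genes that check the tissue, among them Coch, Dct and Otos, were at 10.78 or more on every array. Of these 14, 0 were called by limma and 2 had an unadjusted p under 0.05, as did 3762 of all 18193 genes.

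**Figure D4:**
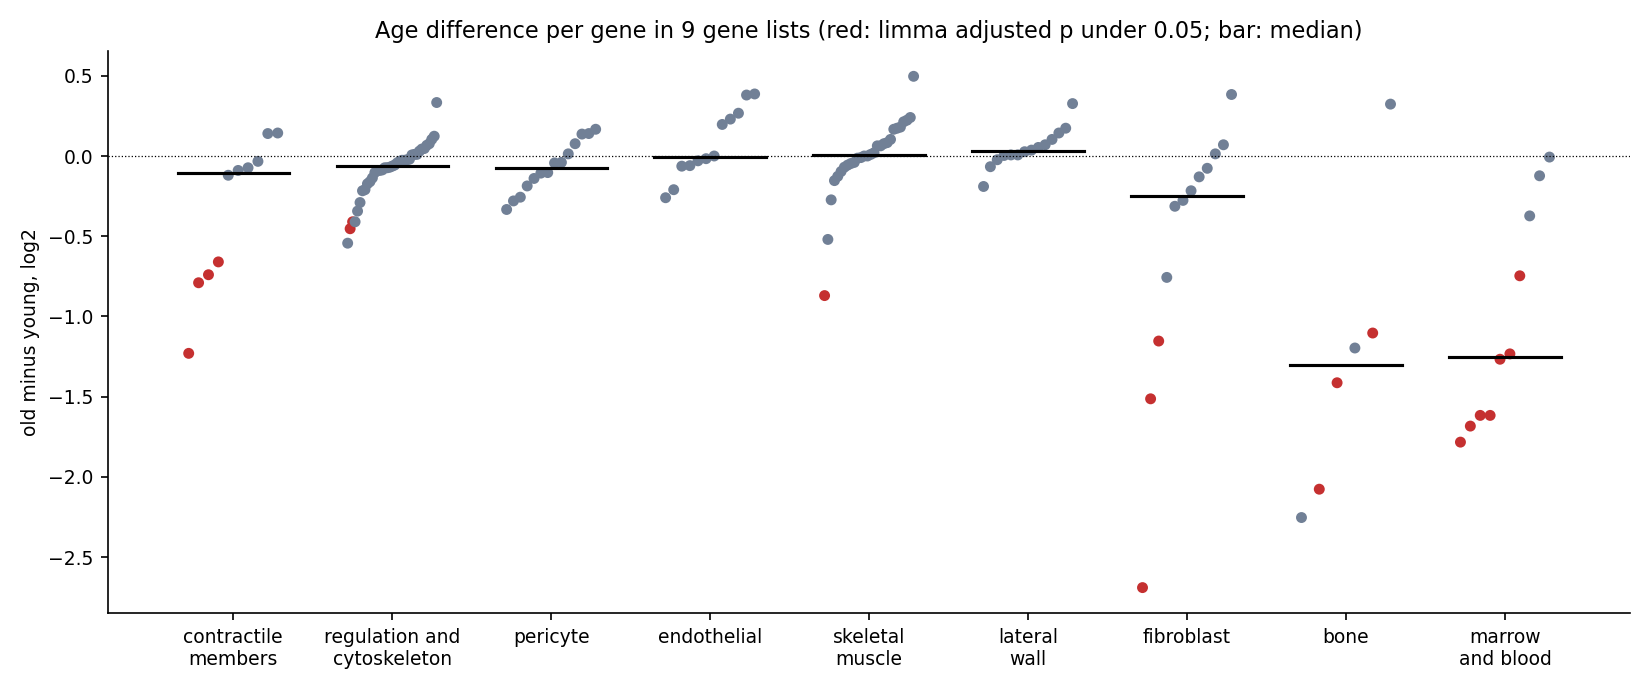
Difference between old and young arrays in log2 units for each measured gene of 9 lists, with red for a limma adjusted p under 0.05 and a bar at the list median. The contractile genes have 4 red points from -1.23 to -0.66 and a median of -0.11, the pericyte, endothelial and lateral wall lists have none, and the bone and marrow lists have medians of -1.31 and -1.25.

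Young replicate 2 stood apart in the RNA of the inactive X chromosome, Xist, at 6.06 against 11.95 to 12.65 on the other arrays. All old arrays were at 12.24 or more, so the mix of the sexes may not be the same at both ages. Its part in the age differences was not tested. Without young replicate 2, all 5 called contractile probe sets remained called. Their differences were then -0.81 for Acta2, -1.37 for Tagln, -0.67 for Myl9, and -0.85 and -0.83 for the Tpm2 pair. The 3′ control probe sets of Gapdh exceeded the 5′ ones by 1.07 to 1.25 at the young and 1.26 to 1.45 at the old age, those of Actb by 1.46 to 1.60 and 1.39 to 1.84, and their part in the contractile differences was not tested. Array medians lay between 6.26 and 6.30.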

How the data were processed

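Total RNA from microdissected lateral wall was labelled with biotin by a 3′ IVT kit, which reads mainly 3′ ends, per the labels' protocols. The authors deposited log2 values for 45101 probe sets on 6 arrays. RMA, MAS5 and Affymetrix Expression Console are named, per the submitters' processing notes, and their roles and versions are not given in the sources used here. Neither detection calls nor scans were used here, and the number of arrays limits the precision. A shift shared by most genes would be removed by such normalization.

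After leaving out 64 control probe sets, 45037 were fitted in R 4.3.3 with age as the only term (limma 3.58.1, lmFit and eBayes), with Benjamini-Hochberg adjustment over all of them and a threshold of 0.05. The brightest probe set stood for each gene. Names came from the platform annotation, in which 34945 probe sets had 1 symbol, 932 several and 9160 were not listed. The scripts were tested on simulated data. The 10 genes and all lists were chosen with earlier results of these data known. Named were the 10 genes, the 4 other actins, the 3 brightest of each marker list and the 5 nearest profiles. Called genes of each list were named up to a set number, or those with the smallest p. Chosen after their values were seen were Srf, Mrtfa, Mrtfb, Mylk, Tpm1, Gucy1a1, Cacna1c, Vwf, Cldn5, Kdr, Col1a1, Mpo and Xist.

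Same-numbered young and old arrays did not deviate together, so the numbers were not treated as pairs. Alternatives were other scalings, a filter on dim probe sets, other variance models, array weights, a replicate block, a stricter threshold, averaging the probe sets of each gene and leaving out each array.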

Additional observations from a re-analysis of the deposited data

How the results depend on the processing

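All 5 called contractile probe sets kept their direction under every alternative run, and 5 were also called with median centring, repeated quantile normalization, cyclic loess, array weights, robust variance with an intensity trend and the filter on dim probe sets. At an adjusted p of 0.01, the counts were 3 contractile probe sets, 2 contractile genes and 436 of all probe sets. Of the 37 regulation and cytoskeleton genes 0 passed, and 8 had an unadjusted limma p under 0.05, as did 3762 of all 18193 genes. With array weights, 4480 of all probe sets and 4 regulation and cytoskeleton genes were called. With 1 array left out, 3 to 5 contractile probe sets, 2 to 4 contractile genes, 515 to 3393 of all probe sets and 0 to 3 of the 37 genes were called. With the replicate number as a block, 5 contractile probe sets, 4 contractile genes, 2 of the 37 genes and 1932 of all probe sets were called, and the correlations of same-numbered deviations were -0.04, -0.08 and 0.01. Averaging the probe sets of each gene left 3 of the 10 genes called, without Acta2. Scaling changed the sign of 1 uncalled probe set, Acta2 1456658_at, and the median of all probe sets lay between 0.003 and 0.013 (log2). The causes of these changes were not tested.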

Other observations

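Single skeletal muscle genes were high on 1 old array, and they are given here because their values were noticed, with no test. Myh1, a fast myosin heavy chain, was at 7.77 in old replicate 1 and at 5.91 to 6.12 on the other 5 arrays. Acta1, the skeletal actin, was at 6.54 in old replicate 1 and at 5.59 to 6.41 elsewhere. Ckm, the muscle creatine kinase, was at 6.19 there and at 5.67 to 5.94 elsewhere. Other genes of the skeletal muscle list went the other way. Casq1 had its lowest signal in old replicate 1, 5.88 against 6.09 to 7.02 elsewhere, as did Mybpc1, 8.20 against 8.45 to 9.06. How many genes of the list were high on that array was not counted. On the same array Tpm2 had the lowest old signals of its brightest pair of probe sets, 8.50 and 7.15, and Myl9 had the highest old signal, 10.33. Desmin was at 7.24 there, against 7.08 and 7.09 in the other old samples, and within the 7.06 to 7.25 of the young samples.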
